A study of Mus musculus with 15 samples.

Results

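A microRNA (miRNA) hairpin is cut into a duplex, and the arm of it that yielded fewer reads is called the minor arm here. For each named mouse hairpin, reads were summed over all 15 libraries, and hairpins with reads on both arms and at least 200 reads in all were kept. Of 586 hairpins with a read, 291 had reads on both arms and 157 of these reached 200 reads. Leaving out 19 hairpins by name (let-7, miR-9, miR-21a, miR-31, miR-126a, miR-132, miR-144, miR-199, miR-200, miR-204, miR-212 and miR-214) and 10 in the miRNA cluster of chromosome 12 at 109.5 to 109.8 Mb gave 128 minor arms. Of these, 108 came from 1 hairpin and 20 from hairpins with near-identical arms that were counted together, so 149 hairpins stood behind them. For those 20, a change in arm choice and a change in the mix of hairpins cannot be told apart. Which arm is minor, its share over all libraries and the 200 reads all came from the same reads, so the members were chosen by measured values, and those values are given as a description. Just inside the limit was Mir193a with 206 reads and a minor share of 34.5%, and just outside were the Mir344d hairpins with 191 reads and 15.7%.

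The study sequenced small RNA (18 to 26 bases used) from 5 groups of 3 libraries. MM3MG is, per its label, a normal mammary epithelial line of BALB/c origin. MM3MG-Her2 was made from it by retroviral transduction with pLSXN-Neu. TUBO is a breast cancer line from primary tumours of Balb-NeuT mice, and the other groups are exosomes from the medium of TUBO cultures and the supernatant left by the exosome isolation. All groups came from cells grown in DMEM with 10% FCS (fetal calf serum) and no treatment, so medium fractions can hold serum RNA. Nothing in the labels says whether replicates were separate cultures, so p-values measure the spread between these libraries, which may be technical. Libraries held 196152 to 710902 reads of all lengths, of which 28.1 to 78.8% matched named hairpins, lowest in the supernatant (58947 to 76914 reads). The epithelial miRNA markers (miR-200 family, miR-203 and miR-205) held 2.60 to 2.73% of hairpin reads in TUBO but 0.00259 to 0.00448% in MM3MG and 0.00116 to 0.00399% in MM3MG-Her2, although the label calls that line epithelial. At least 3 of the 7 epithelial marker hairpins had a read in every library. Markers of blood cells and serum held 1.08 to 2.52% in exosomes, 0.305 to 0.709% in supernatant and 0.0123 to 0.0158% in TUBO cells. Inserts of 20 bases or shorter made up a mean of 28.9% in supernatant, against 10.2% in MM3MG, 16.1% in MM3MG-Her2, 10.05% in TUBO and 15.9% in exosomes. The part of these values in the differences below was not tested. In pooled material, fewer cells or vesicles of a type and less RNA in each cannot be told apart.

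Drosha and then Dicer cut a miRNA duplex from its hairpin, and an Argonaute protein keeps 1 strand of it, the guide, while the other strand, the passenger or star strand, is usually degraded. The strand whose 5′ end is less tightly paired, and strands that start with U or A, are favoured as guides. Both arms can be loaded, and each arm has its own seed (bases 2 to 8), which pairs with target mRNAs, so a change in the balance of the arms changes which targets can be bound. In breast tissue and elsewhere the ratio of the arms is known to differ between cell types and tumours for some hairpins.

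The arms on which the results turn are shown with their seeds in capitals, from 5′ to 3′, with the major arm under its minor arm; mature sequences are those of RefSeq for GRCm38.p6, which named an arm for 139 of the 149 hairpins.
miR-30a-3p (minor): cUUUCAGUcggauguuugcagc
miR-30a-5p (major): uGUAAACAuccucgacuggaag
miR-30e-3p (minor): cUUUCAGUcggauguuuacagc
miR-30e-5p (major): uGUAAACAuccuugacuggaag
miR-181a-1-3p (minor): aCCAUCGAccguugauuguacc
miR-181a-2-3p (minor): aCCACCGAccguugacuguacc
miR-181a-5p (major of both): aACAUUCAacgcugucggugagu
miR-125a-3p (minor): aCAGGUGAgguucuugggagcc
miR-125a-5p (major): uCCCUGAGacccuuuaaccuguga
miR-423-5p (minor): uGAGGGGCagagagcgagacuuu
miR-423-3p (major): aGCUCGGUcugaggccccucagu
miR-106b-5p (minor): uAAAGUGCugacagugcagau
miR-106b-3p (major): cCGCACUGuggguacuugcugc
miR-322-3p (minor): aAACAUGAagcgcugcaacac
miR-322-5p (major): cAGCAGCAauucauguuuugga
miR-27a-5p (minor): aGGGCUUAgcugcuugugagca
miR-27a-3p (major): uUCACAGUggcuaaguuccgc
miR-92a-1-5p (minor): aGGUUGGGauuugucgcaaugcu
miR-92a-3p (major): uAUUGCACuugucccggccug

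Seeds were shared less widely among minor than among major arms. RefSeq named 106 minor arms with 99 seeds, and 14 of these arms fell into 7 pairs with a common seed. Of 111 named major arms, 45 fell into 17 groups with a common seed. The pairs included miR-30a-3p with miR-30e-3p (UUUCAGU), miR-148a-5p with miR-148b-5p, miR-181a-1-3p with miR-181c-3p, and miR-450a-1-3p with miR-450b-3p. The 3p arms of Mir181a-1 and Mir181a-2 have different seeds (CCAUCGA and CCACCGA), while their 5p arms are identical. For 3 minor arms, the seed was also that of a major arm: miR-106b-5p carries the seed AAAGUGC of miR-17-5p, miR-20a-5p and miR-93-5p, miR-99a-5p that of miR-100-5p and miR-99b-5p, and miR-99b-3p that of miR-99a-3p.

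Over all libraries the minor arm held from 0.0143 to 47.7% of a hairpin's reads, with a median of 2.74%. The share was under 1% for 45 hairpins, from 1 to 10% for 50 and at least 10% for 33. The minor arm was the 5p arm of 56 hairpins and the 3p arm of 72. Near-equal arms were found for Mir345 (47.7%), Mir423 (47.3%), Mir361 (46.9%), Mir99a (46.6%), Mir450b (43.3%), Mir322 (43.0%) and Mir350 (41.4%), followed by Mir324, Mir193a, Mir3068, Mir151 and Mir106b (37.5, 34.5, 33.4, 28.2 and 27.3%). Minor arms gave 64019 of 2658602 reads (2.41%), and 19 of them had fewer than 10 reads, while 55 had at least 100. Few hairpins supplied most of these reads: Mir30a alone gave 13999 (21.9%), the Mir181a hairpins 6568, Mir151 6244 and Mir423 5345. The 12 hairpins with most minor reads, which also included Mir125b, Mir30c, Mir30e, Mir99b, Mir106b, Mir322, Mir181c and Mir28a, gave 77.4% of them.

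**Figure D1:**
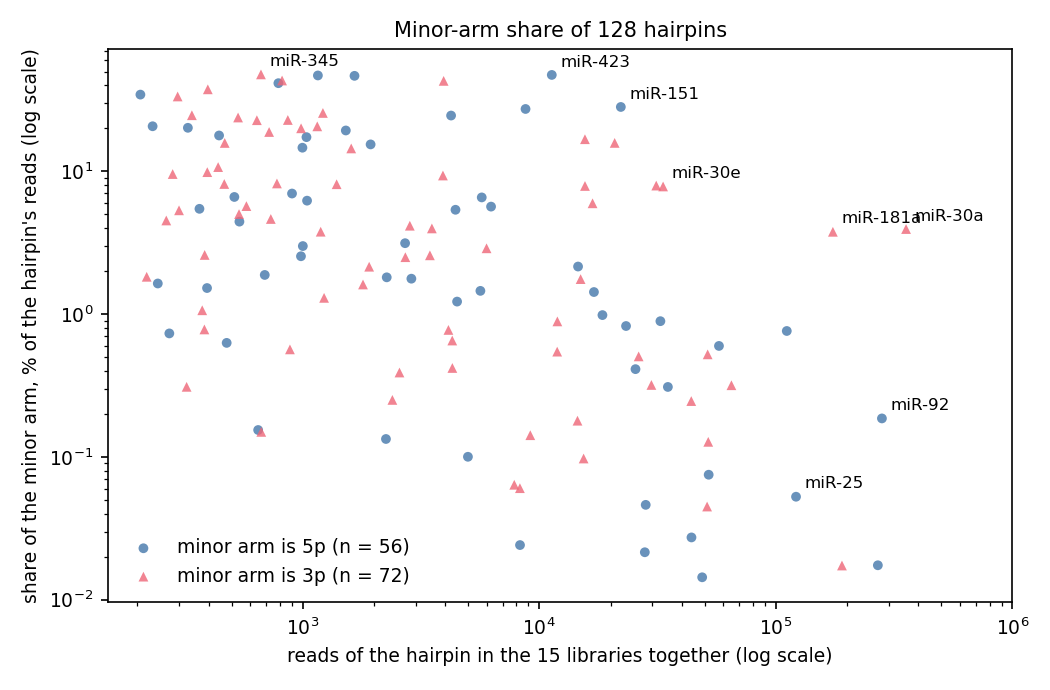
Share of the minor arm (percent of the hairpin's reads, log scale) against the reads of the hairpin in the 15 libraries together (log scale), 1 point for each of 128 hairpins, with circles where the minor arm is the 5p arm and triangles where it is the 3p arm. Shares run from 0.0143 to 47.7%, and Mir30a combines a share of 3.94% with the highest read number.

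Minor and major arms differed in sequence features that the choice of members had not used. The leading read began with U on 71 of the 128 major arms but on 27 of the minor arms, and with C on 25 major and 44 minor arms. It began with A on 29 major and 39 minor arms and with G on 3 major and 18 minor arms. Among the first 4 bases, A or U was more frequent on the major arm of 62 hairpins, on the minor arm of 30, and equally frequent in 36. Of the 33 hairpins with a minor share of at least 10%, 16 major and 10 minor arms began with U, against 24 and 8 of the 45 hairpins with a share under 1%. Cleavage ends were less uniform on the minor arm: the commonest 5′ start held a median of 89.7% of the reads of a minor arm and 97.85% of those of a major arm. Median GC content was 50% for minor and 45.5% for major arms.

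The summed share of minor reads was lowest in MM3MG, where it was 1.5, 1.75 and 1.80% in replicates 1 to 3 (1.68% ± 0.158, SD, n = 3). It was 2.42 to 2.47% in MM3MG-Her2 (2.44% ± 0.0238), 2.39 to 2.45% in TUBO cells (2.42% ± 0.0304), 2.74 to 2.99% in exosomes (2.855% ± 0.124) and 3.12 to 3.68% in supernatant (3.46% ± 0.299). MM3MG-Her2 and TUBO libraries overlapped, and each of the other groups stood apart from every other. A summed score over chosen hairpins was given no test. The makeup of the minor reads differed between groups. Of all minor reads, the 3p arm of Mir30a gave 44.05% in exosomes and 22.4% in TUBO cells, but 13.4% in supernatant, 5.54% in MM3MG-Her2 and 3.41% in MM3MG. In supernatant miR-423-5p took up 1.502 of the 3.46 percentage points, against 0.117 of 2.42 in TUBO cells. With Mir30a and the Mir181a hairpins left out, the share was 1.74% in exosomes and 2.22% in TUBO cells, so that exosomes lay below the cells, while MM3MG had 1.68%, MM3MG-Her2 2.37% and supernatant 2.76%. Over hairpins with no read shared with another hairpin, which leaves out Mir30a for 1 shared read, the exosome value was 1.62%.

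**Figure D2:**
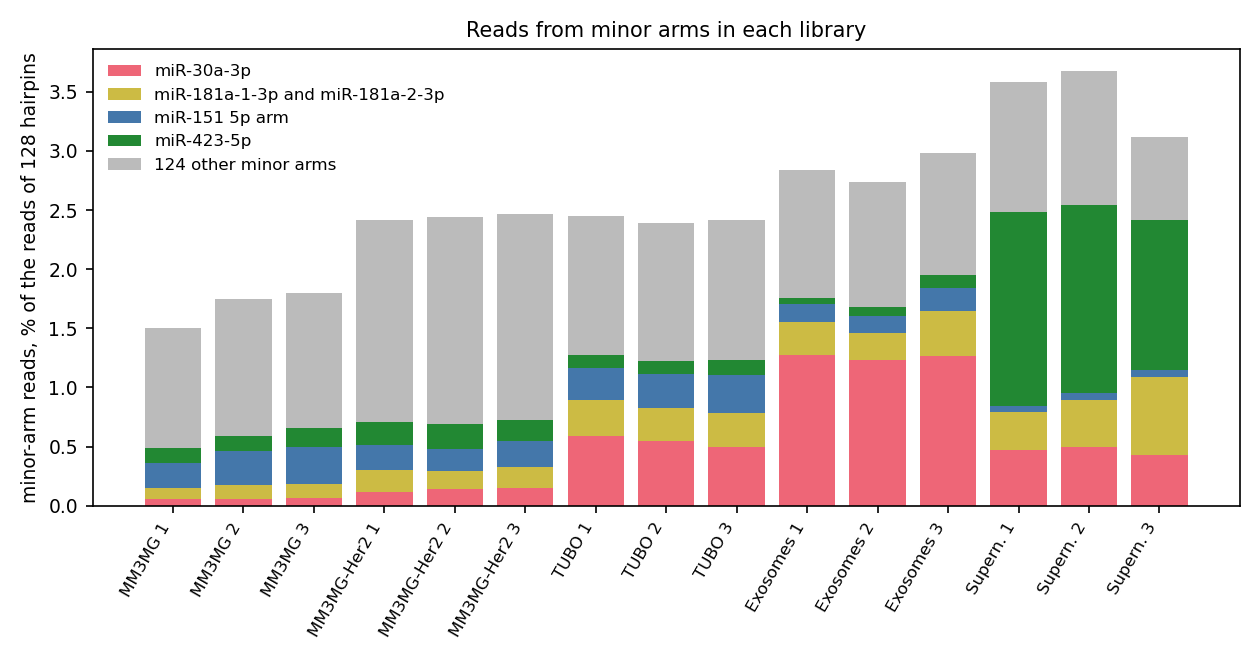
Reads from minor arms as a percentage of all reads of the 128 hairpins (y axis, from 0) in each of the 15 libraries (x axis), stacked by source. Exosome libraries stand out by miR-30a-3p and supernatant libraries by miR-423-5p, which took up 1.502 percentage points on average.

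The median share showed another order. Over the 63 hairpins with at least 10 reads in every library its mean was highest in MM3MG-Her2 (1.46%), followed by TUBO cells (1.01%), MM3MG (0.961%), exosomes (0.559%) and supernatant (0.396%) (means of 3 libraries; 0 to 0.862% among supernatant libraries). At least 1 read of the minor arm was present for 97 to 106 of 128 hairpins in MM3MG, 90 to 101 in MM3MG-Her2, 49 to 62 in supernatant, 89 to 94 in exosomes and 96 to 104 in TUBO cells. The supernatant libraries were the shallowest, and low shares were often not detectable in them.

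The first comparison set MM3MG-Her2, the Neu-transduced line, against its parent MM3MG. The groups hold no line with an empty vector, so effects of the transgene, the transduction and later culture cannot be told apart. For each hairpin, edgeR's quasi-likelihood test compared the log2 odds of a read coming from the minor arm, and a hairpin is called where the Benjamini-Hochberg adjusted p over all hairpins tested was under 0.05. Of 105 members with at least 10 reads in each of the 6 libraries, 24 were called, 18 with a higher and 6 with a lower minor share in MM3MG-Her2. Over all 124 hairpins tested 24.2% were called (18.5% higher and 5.65% lower), close to the 22.9% of members. The median difference in log2 odds was 0.30, as over all hairpins tested. In all comparisons, the largest rises and falls named were picked among called members whose libraries did not overlap between groups. For these, lack of overlap was a condition of naming and is no separate support.

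The rise with the lowest p was on the Mir181a hairpins, regulators of T-cell signalling among other roles. The share of their 3p arms was 1.57, 1.60 and 1.41% in MM3MG and 5.60, 4.35 and 4.96% in MM3MG-Her2, a difference of 1.75 ± 0.19 (SE) in log2 odds (edgeR adjusted p = 1.36e-16). These ranges lay far apart. Both 3p arms were read: miR-181a-1-3p had 550 reads in MM3MG and 376 in MM3MG-Her2, and miR-181a-2-3p 160 and 224. These are read numbers not scaled to depth, which was greater in MM3MG (300941 to 502722 hairpin reads per library, against 175290 to 259609). They therefore show the mix of both hairpins and not a fall of miR-181a-1-3p. The 5p reads are pooled over both hairpins, so this mix and arm choice cannot be told apart. miR-125a-3p had a share of 0.294, 0.310 and 0.507% in MM3MG and of 0.885, 2.01 and 2.76% in MM3MG-Her2, higher by 2.24 ± 0.42 (adjusted p = 3.99e-06). All 3 MM3MG-Her2 libraries were above all MM3MG libraries, from 19 and 58 minor reads in all. The share of miR-27a-5p, whose hairpin belongs to the miR-23a/27a/24-2 cluster, was 2.98, 6.56 and 4.83% in MM3MG and 19.5, 12.8 and 10.7% in MM3MG-Her2, higher by 1.73 ± 0.33 (adjusted p = 4.60e-06). miR-148a-5p, partner of the DNMT1-targeting miR-148a-3p, rose from 0.444 to 0.550% in MM3MG to 1.22 to 1.46% in MM3MG-Her2 (1.51 ± 0.24, adjusted p = 1.14e-08). The 3p arms of the Mir125b hairpins rose from 8.17 to 10.8% to 22.2 to 24.9% (1.502 ± 0.22, adjusted p = 8.10e-10). In each of these the groups did not overlap, as the naming of Mir181a, Mir125a and Mir27a required.

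Smaller read numbers stood behind the rises of Mir100 (1.80 ± 0.51, 13 and 33 minor reads), Mir210, the hypoxia-responsive miRNA (2.05 ± 0.54, 8 and 45 minor reads), and Mir328 (2.22 ± 0.60, 19 and 15 minor reads). Their adjusted p-values were 0.00278, 0.0011 and 0.00144. Among members with at least 30 minor reads in the libraries compared, the largest fall was that of miR-450b-3p, an arm of the X-linked Mir322/Mir503 cluster: 84.2, 72.6 and 75% in MM3MG and 48.9, 45.8 and 42.9% in MM3MG-Her2 (-1.83 ± 0.45, adjusted p = 0.000445). This 3p arm was thus the more abundant arm in every MM3MG library. Below that limit, Mir503 of the same cluster fell by more, from 16 of 298 reads to 12 of 929 (-2.13 ± 0.62, adjusted p = 0.00378), with no overlap of libraries. miR-17-3p, passenger of the oncogenic miR-17-5p, fell from 16.4 to 27.8% to 7.56 to 11.9% (-1.21 ± 0.31, adjusted p = 0.00104). miR-423-5p fell from 61.2, 51.6 and 55.7% to 38.0, 39.2 and 33.3% (-1.12 ± 0.23, adjusted p = 3.54e-05), and here too the order of the arms differed between the groups. Mir99a and Mir28a fell by less (-0.84 ± 0.28 and -0.78 ± 0.27). Over 14 alternatives the adjusted p ranged from 0.0082 to 0.0604 for Mir99a, and over 13 from 2.25e-05 to 0.135 for Mir28a. The call of Mir99a and that of Mir210 (0.000509 to 0.0579) were lost without MM3MG-Her2 replicate 2, and that of Mir28a without MM3MG replicate 3 or MM3MG-Her2 replicate 1. Mir328 was not called with inserts of 20 to 24 bases (range of adjusted p 0.000891 to 0.0547).

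TUBO and MM3MG differ in origin as well as in the transgene. Of 105 members tested between them, 26 were called, 19 higher and 7 lower in TUBO, against 23.9% of all 117 hairpins tested (17.1% higher and 6.84% lower). The median difference in log2 odds was 0.25, and 0.24 over all hairpins. DESeq2 called 16 members, 11 higher and 5 lower. For this and later counts under other settings no share over all hairpins is given, so none is read as a trait of the members. The same 9 cell libraries served both comparisons with MM3MG, so the MM3MG libraries are shared and the values are given side by side only.

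The 3p arms of the Mir181a hairpins held 4.39, 4.45 and 4.53% in TUBO, above the 1.41 to 1.60% of MM3MG (1.59 ± 0.19, adjusted p = 8.20e-15). The 3p arm of Mir99b, which lies beside Mir125a in Spaca6 (chr17:17830188-17830257, GRCm38, intron), held 9.79, 10.3 and 9.17% in TUBO and 3.45, 5.15 and 4.57% in MM3MG (1.24 ± 0.23, adjusted p = 1.99e-06). No library of one group reached the range of the other. Mir328, Mir301, Mir3068 and Mir100 rose by 2.29 ± 0.44, 2.42 ± 0.66, 2.04 ± 0.50 and 1.56 ± 0.47, with adjusted p-values of 6.39e-06, 0.00175, 0.000382 and 0.00605. For Mir3068 the 3p arm went from 16 to 20% in MM3MG to 38.7 to 54.5% in TUBO. Among members with at least 30 minor reads, miR-450b-3p again had the largest fall, to 35.5, 29.2 and 29.0% in TUBO (-2.73 ± 0.40, adjusted p = 6.54e-10). Mir503 fell from 16 of 298 reads to 1 of 362, a share 19.4-fold lower (95% interval 3.02 to 815, counting error only; edgeR adjusted p = 0.000382). miR-17-3p fell to 6.34 to 10.7% (-1.55 ± 0.31, adjusted p = 1.55e-05), and miR-423-5p to 33.0, 31.2 and 35.1% (-1.36 ± 0.23, adjusted p = 1.93e-07). The 3p arm of Mir181c fell from 11.9 to 17.4% to 5.72 to 7.20% (-1.25 ± 0.35, adjusted p = 0.00281), while the level of the hairpin rose: 41 minor reads of 291 in MM3MG stood against 691 of 10611 in TUBO. Mir340, Mir425 and the Mir24 hairpins were called, but over 14, 13 and 13 alternatives their adjusted p rose to 0.139, 0.250 and 0.0641. Mir340 rested on 1 minor read in MM3MG and 40 in TUBO, a ratio of shares of 7.96 (95% interval 1.35 to 322). Its call was lost without any 1 of the MM3MG libraries or TUBO replicate 2. That of Mir425 was lost without MM3MG replicate 2 or 3 or TUBO replicate 1 or 2, and that of Mir24 without TUBO replicate 1.

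Between the lines that carry the Her2/neu oncogene, TUBO and MM3MG-Her2, 8 of 98 members were called, 2 higher and 6 lower in TUBO, against 8.18% of 110 hairpins tested (1.82% higher and 6.36% lower). miR-106b-5p was higher, with 43.2, 38.2 and 39.7% in TUBO and 26.1, 24.5 and 26.6% in MM3MG-Her2 (0.97 ± 0.23, adjusted p = 0.00103). MM3MG had 23.5, 25.6 and 25.6%, so the TUBO libraries stood apart from both other cell groups. Mir106b lies with Mir93 and Mir25 in Mcm7, a gene of DNA replication licensing (chr5:138165737-138165818, GRCm38, intron). Mir340 was higher as well, with 40 of 6501 reads in TUBO and 0 of 1314 in MM3MG-Her2, at least 2.695-fold by the limit of 3 reads over the group. Falls were called for Mir221, the Mir26a, Mir24 and Mir92 hairpins, Mir27a and Mir210. The 5p arm of Mir221, which has the cell cycle inhibitor p27 among the targets of its 3p arm, held 0.909, 0.996 and 1.99% in TUBO and 4.84, 4.30 and 4.53% in MM3MG-Her2 (-1.84 ± 0.34, adjusted p = 1.12e-05). miR-27a-5p held 7.10, 5.97 and 6.40% in TUBO, under the 10.7 to 19.5% of MM3MG-Her2 (-1.27 ± 0.30, adjusted p = 0.00101). DESeq2 called 2 members, 1 in each direction, and 5 were called without MM3MG-Her2 replicate 2, MM3MG-Her2 replicate 3 or TUBO replicate 1. Mir106b was the member called under all 14 of its alternatives, while the 7 others each lost the call in at least 1.

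**Figure D3:**
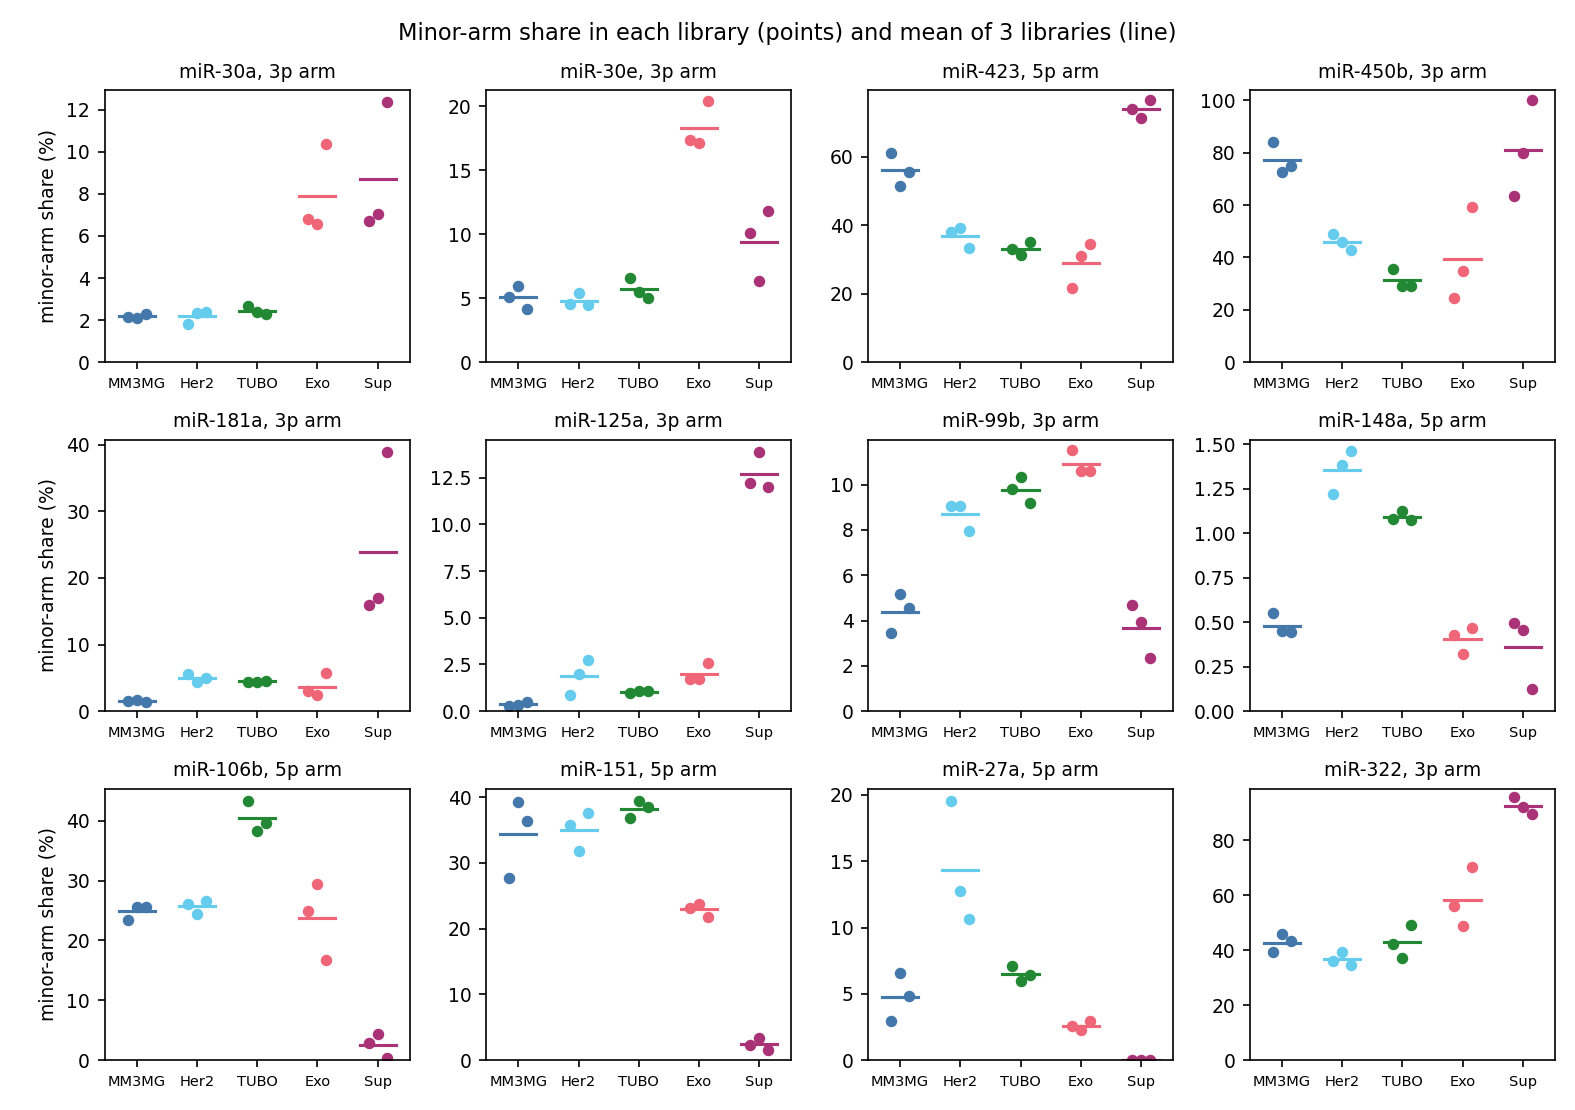
Minor-arm share (y axis, percent of the hairpin's reads, from 0, scale differs between panels) of 12 hairpins in each library of MM3MG, MM3MG-Her2 (Her2), TUBO, exosomes (Exo) and supernatant (Sup); points are libraries and lines the mean of 3. miR-30a-3p is at 1.80 to 2.65% in all 9 cell libraries and at 6.59 to 12.4% in the 6 medium libraries, and miR-106b-5p and the 5p arm of Mir151 are at most 4.35% in supernatant.

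Exosomes were compared with the TUBO cells that had released them. Of 105 members tested, 30 were called, 9 with a higher and 21 with a lower minor share in exosomes, against 32.0% of all 122 hairpins tested (9.02% higher and 23.0% lower). The median difference was -0.41 in log2 odds, and -0.42 over all hairpins tested. DESeq2 called 5 members, 3 higher and 2 lower. For named hairpins that it did not call, its estimates lay close to those of edgeR: 2.70 and 2.57 for Mir350, -2.51 and -2.48 for Mir25, and -2.17 and -2.13 for Mir93, each at a DESeq2 adjusted p of 0.059. Others lay further from the threshold: the DESeq2 adjusted p was 0.0949 for Mir152, 0.113 for Mir328, 0.128 for Mir574, 0.257 for Mir106b and 0.318 for Mir17.

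miR-30a-3p held 2.65, 2.38 and 2.31% of Mir30a reads in TUBO cells and 6.82, 6.59 and 10.4% in exosomes, higher by 1.75 ± 0.30 (adjusted p = 4.03e-07). Every exosome library was above every cell library of the study. miR-30e-3p, which has the same seed, held 6.57, 5.47 and 5% in TUBO cells and 17.4, 17.1 and 20.4% in exosomes (1.90 ± 0.29, adjusted p = 1.58e-08). Its share also stood above that in supernatant (10.1, 6.32 and 11.8%). The other measured hairpins of the miR-30 family, Mir30b, Mir30d and the Mir30c hairpins, were not called. The Mir30c share was 18.5, 16.6 and 18.6% in cells and 14.5, 14.3 and 13.3% in exosomes (-0.42 ± 0.29, adjusted p = 0.285). Mir30a and Mir30e lie on chromosomes 1 and 4, and both are in the list of hairpins known to use both arms, in which 4 of 12 tested members were called higher and 4 lower, against 9.02 and 23.0% of all hairpins tested.

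Of the hairpins with near-equal arms, Mir361, Mir345, Mir99a and Mir350 had a higher minor share in exosomes, while Mir423, Mir450b and Mir322 were not called; Mir322 was called higher without TUBO replicate 3 or exosome replicate 2 (edgeR adjusted p = 0.039 and 0.037). For Mir361 in an intron of Chm, the 5p arm held 46.7, 58.1 and 45.6% in cells and 68.3, 74.4 and 67.7% in exosomes (1.21 ± 0.41, adjusted p = 0.0145). miR-345-3p went from 40.5, 39.4 and 48.7% to 67.3, 68.6 and 62.1% (1.33 ± 0.43, adjusted p = 0.0083), and miR-99a-5p from 40.7, 42.0 and 50.9% to 60.3, 70.5 and 59.4% (1.09 ± 0.42, adjusted p = 0.0311). For each of these the minor arm was the more abundant one in all 3 exosome libraries, with no overlap between groups. DESeq2 gave these 3 hairpins similar differences (1.22, 1.36 and 1.11) but did not call them (adjusted p = 0.128, 0.126 and 0.251). Their calls were also lost without single libraries: that of Mir361 without TUBO replicate 1 or 3 or exosome replicate 2, that of Mir345 without TUBO replicate 2, and that of Mir99a without TUBO replicate 1 or 2 or exosome replicate 1 or 2. The 5p arm of Mir350 held 18.2, 40.5 and 43.9% in cells and 85.7, 80.0 and 61.3% in exosomes, from 39 and 75 minor reads (2.57 ± 0.58, adjusted p = 0.000292). miR-222-5p rose from 0.678 to 0.859% to 2.31 to 5.81% (2.33 ± 0.53, adjusted p = 0.000292), whereas that of its neighbour Mir221 fell from 31 reads of 2388 to 3 of 1990, a share 8.61-fold lower (95% interval 2.69 to 44.0, counting error only). Mir6240 and Mir574 were called higher as well, from 4 and 23 minor reads in TUBO cells; over 14 and 13 alternatives the adjusted p reached 0.0967 and 0.352, and the call of Mir574 was lost without TUBO replicate 2, TUBO replicate 3 or exosome replicate 3.

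Of 9 tested members of the miR-17 family clusters, whose miRNAs are known to promote proliferation in many tumours, 5 were called lower in exosomes and 0 higher, against 23.0 and 9.02% of all hairpins tested. The median over the 9 was -1.16. It takes in Mir19a, with no minor read in either group, and the Mir19b hairpins, with none in exosomes. The 5 were Mir17, Mir106b, Mir93, Mir25 and the Mir92 hairpins, while Mir18, Mir19a, Mir20a and the Mir19b hairpins were not called. Of the called ones, Mir17 and Mir93 have a minor 3p arm, and Mir106b and the Mir92 hairpins a minor 5p arm. The calls are thus not a shift towards the same arm. The call of Mir17 was lost with DESeq2 and without TUBO replicate 2 or 3 or exosome replicate 1 or 3 (adjusted p up to 0.318). miR-106b-5p held 43.2, 38.2 and 39.7% in TUBO cells and 24.9, 29.4 and 16.7% in exosomes (-1.16 ± 0.28, edgeR adjusted p = 0.000618). DESeq2 did not call it (adjusted p = 0.257). The 5p arm of the Mir92 hairpins, all of whose reads were miR-92a-1-5p, gave 189 of 91964 reads in cells and 15 of 31194 in exosomes (-2.10 ± 0.45, adjusted p = 0.000145). Mir25 and Mir93 fell by 2.48 ± 0.61 and 2.13 ± 0.54 in log2 odds from 36 and 37 minor reads in cells to 7 and 12, with adjusted p-values of 0.000618 and 0.000798. The 5p arm of Mir151, a hairpin in an intron of the focal adhesion kinase gene Ptk2 (chr15:73254815-73254882, GRCm38), held 36.8, 39.4 and 38.5% in cells and 23.2, 23.8 and 21.8% in exosomes (-1.06 ± 0.29, adjusted p = 0.00189). miR-148a-5p fell from 1.08 to 1.13% to 0.324 to 0.470% (-1.42 ± 0.35, adjusted p = 0.000618). For these values, from Mir106b to Mir148a, the libraries of the groups did not overlap; those of Mir17 did. The 5p arm of Mir301 fell from 12.4 to 13.9% to 1.1 to 3.19% (-2.53 ± 0.64, adjusted p = 0.000798). Mir350, Mir222, Mir30a, Mir30e, Mir301, Mir25, Mir93, Mir106b, Mir151, Mir148a and the Mir26a and Mir92 hairpins kept the call whichever library was left out, and of these Mir222, Mir30a, Mir30e and Mir301 kept it with DESeq2. The call of Mir328 (48 minor reads in cells, 3 in exosomes) was lost without exosome replicate 2 or 3, with adjusted p from 0.00387 to 0.208 over 13 alternatives.

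The supernatant left after exosome isolation differed from TUBO cells in more hairpins. Only 67 members reached 10 reads in each of the 6 libraries, and 32 of them were called, 12 higher and 20 lower in supernatant, against 50% of 84 hairpins tested (23.8% higher and 26.2% lower). The median difference was -1.49 in members and -0.91 over all hairpins tested. Of 34 tested members with a minor 5p arm 3 rose and 13 fell, and of 33 with a minor 3p arm 9 rose and 7 fell. In exosomes against TUBO cells, 6 of 45 with a minor 5p arm rose and 14 fell. There, 3 of 60 with a minor 3p arm rose and 7 fell. Among the 46 tested members with no read shared with another hairpin, 20 were called in supernatant. No share over all hairpins stands beside the split by arm or this count, so neither is read as a trait of the members.

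miR-423-5p had become the main arm in supernatant, with 74.1, 71.5 and 76.7% against 33.0, 31.2 and 35.1% in TUBO cells (2.54 ± 0.29, adjusted p = 4.78e-16). It gave 2224 minor reads there. miR-125a-3p held 12.2, 13.9 and 12% in supernatant and 0.974, 1.09 and 1.05% in cells (3.76 ± 0.38, adjusted p = 2.96e-20). miR-322-3p held 95.8, 92.1 and 89.5% against 42.2, 37.0 and 49.3% (4.03 ± 0.61, adjusted p = 5.18e-10), from 75 of 81 reads. In all of these each supernatant library was above each cell library, as their naming required. The 3p arms of the Mir181a hairpins held 15.9, 17.0 and 38.9%, against 4.39 to 4.53% in cells (2.64 ± 0.33, adjusted p = 3.76e-13). Of their reads in supernatant 673 were miR-181a-2-3p and 35 miR-181a-1-3p, whereas TUBO cells had 1529 and 1288 and exosomes 1091 and 642. The mix of both hairpins thus differed between groups, and its part in the rise cannot be told apart from arm choice. Mir181c rose likewise, to 12, 27.4 and 39.3% from 5.72 to 7.20% (2.12 ± 0.36, adjusted p = 7.97e-08). In both, supernatant replicate 3 was the highest. miR-30a-3p held 6.72, 7.04 and 12.4% in supernatant (1.87 ± 0.30 above cells, adjusted p = 7.16e-09), at the level of exosomes, while miR-30e-3p, with 30 minor reads, was not called (0.79 ± 0.42, adjusted p = 0.115; 0.0495 without supernatant replicate 2).

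Other minor arms were nearly absent from supernatant. miR-106b-5p held 2.87, 4.35 and 0.303%, against 38.2 to 43.2% in cells (-5 ± 0.42, adjusted p = 1.12e-27), and the 5p arm of Mir151 2.37, 3.31 and 1.60%, against 36.8 to 39.4% (-4.74 ± 0.34, adjusted p = 8.53e-39). No reads of the minor arm were found for Mir328 (0 of 1270, which allows a share of up to 0.236%), Mir27b (0 of 3374, up to 0.0889%), Mir27a (0 of 429, up to 0.699%), Mir100 (0 of 204, up to 1.47%) and Mir744 (0 of 339, up to 0.885%). By this limit of 3 reads over the group, which covers counting error only, the share of Mir328 was at least 48.5-fold lower than in TUBO cells, that of Mir27b 8.97-fold, Mir27a 9.31-fold, Mir100 4.34-fold and Mir744 3.21-fold. Their adjusted p-values from edgeR were, in this order, 1.21e-18, 8.83e-08, 4.55e-08, 0.00012 and 0.00102. miR-92a-1-5p gave 1 read of 52317, against 189 of 91964 in cells, a share 107.5-fold lower (95% interval 19.1 to 4269). For the Mir16 hairpins 4 of 638 reads were minor, against 500 of 6896 in cells (-3.60 ± 0.62, adjusted p = 4.95e-08). The minor share of Mir93 was higher in supernatant, with 10 of 551 minor reads against 37 of 9616 (2.24 ± 0.68, edgeR adjusted p = 0.00288). Its minor arm is the 3p arm, so this was a gain of the 3p arm, as for Mir106b. The call of Mir93 was lost without supernatant replicate 2 (range of adjusted p over 14 alternatives 0.00184 to 0.0763). The other hairpins called in this paragraph and the preceding one kept the call under every alternative that gave them a value.

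**Figure D4:**
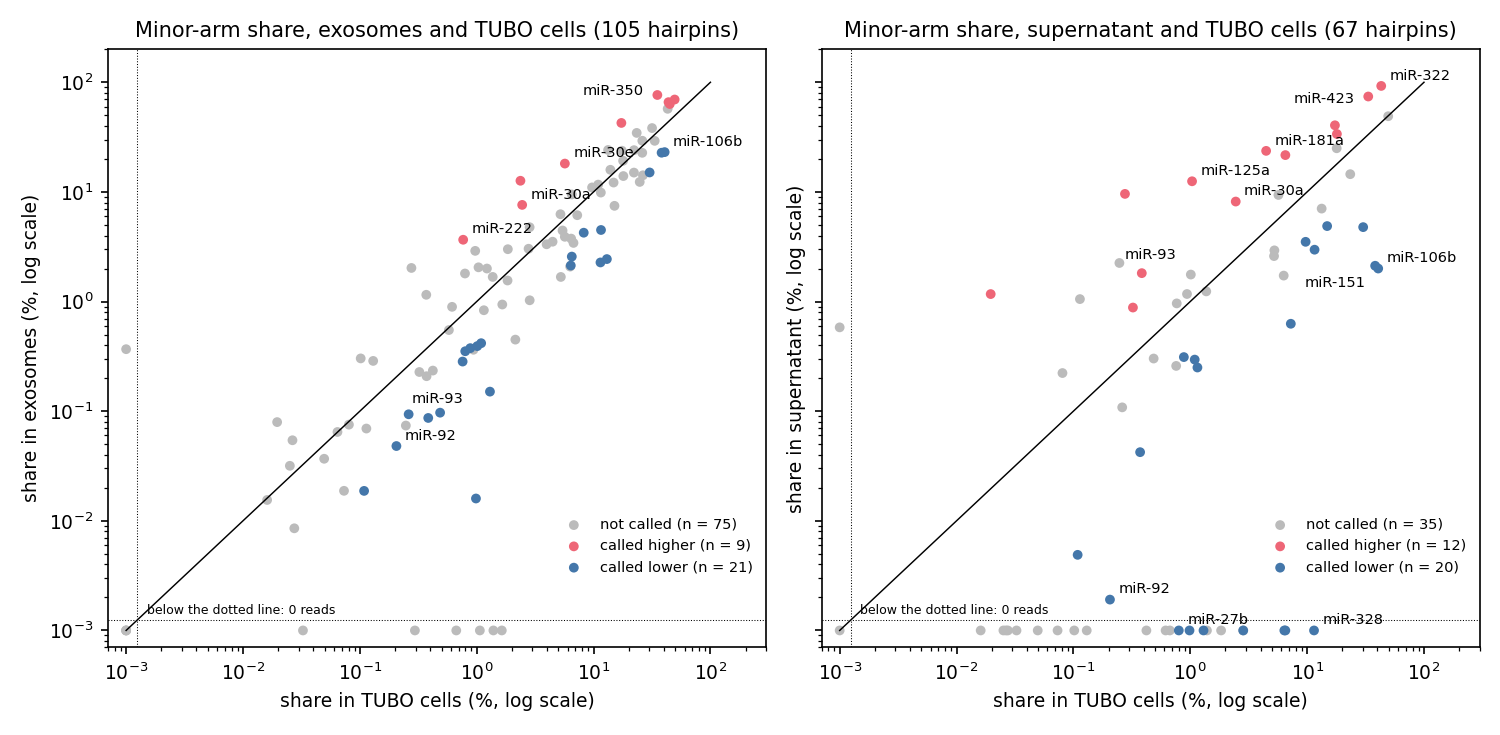
Minor-arm share in exosomes (left, 105 hairpins) and supernatant (right, 67 hairpins) against TUBO cells, each from the reads of 3 libraries together (percent, log scales); points beyond the dotted lines have 0 minor reads, the diagonal marks equal shares, and colours mark hairpins called higher or lower by edgeR. In exosomes 9 are called higher and 21 lower, in supernatant 12 and 20.

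Exosomes and supernatant were also set against each other. Of 69 members tested, 26 were called, 16 with a higher and 10 with a lower minor share in exosomes, against 40.0% of 85 hairpins tested (18.8% higher and 21.2% lower). The medians were 1.11 in members and 0.40 over all hairpins tested. miR-106b-5p (24.9, 29.4 and 16.7% in exosomes) was higher than in supernatant by 3.84 ± 0.44 (adjusted p = 3.42e-16), and the 5p arm of Mir151 by 3.68 ± 0.34 (adjusted p = 2.47e-24). The Mir16 hairpins, with 155 of 2528 minor reads in exosomes, were higher by 3.36 ± 0.65 (adjusted p = 1.37e-06). Mir27b and Mir27a, with 58 and 34 minor reads in exosomes and 0 in supernatant, were at least 3.96-fold and 3.675-fold higher (adjusted p = 0.0003 and 0.000663). Mir3470b had 126 of 263 minor reads in exosomes and 18 of 312 in supernatant (3.85 ± 0.48, adjusted p = 4.28e-13), and 0 of 34 in TUBO cells. miR-423-5p held 21.8, 31.1 and 34.4% in exosomes, lower than in supernatant by 2.82 ± 0.30 in log2 odds (adjusted p = 5.36e-18) and overlapping with TUBO cells. Lower in exosomes were also miR-322-3p (-3.18 ± 0.66), the 3p arms of the Mir181a (-3.02 ± 0.33) and Mir30c hairpins (-1.64 ± 0.36), and miR-125a-3p (-2.78 ± 0.40), with adjusted p-values of 7.70e-06, 6.33e-16, 2.75e-05 and 1.02e-10. These 11 hairpins kept the call under every alternative tried.

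In 21 cases the minor arm held over 50% of a hairpin's reads in a group, 3 in MM3MG, 6 in exosomes and 12 in supernatant. Which arm is minor was set by reads summed over all 15 libraries. Deep libraries such as those of TUBO cells thus counted for more in it than the shallow supernatant ones. MM3MG had Mir423 (55.1%), Mir450b (75.2%) and Mir99a (51.3%). Exosomes had Mir350 (76.5%), Mir361 (69.6%), Mir345 (65.8%), Mir99a (63.3%), Mir322 (57.3%) and Mir324 (54.3%, from 35 reads). Supernatant had Mir423 (74.1%), Mir322 (92.6%), Mir345 (79.1%), Mir350 (93.8%), Mir34b (94.1%), Mir99a (76.7%), Mir450b (73.9%), Mir324 (52.0%), and, from at most 10 reads each, Mir18, Mir3068, Mir872 and mmu-mir-3535. Apart from Mir423, these supernatant values rested on 81 reads or fewer per hairpin.

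Related hairpins did not always move together. Of 5 tested members of the miR-99/100 and miR-125 families, which lie in ancient clusters with let-7, 4 had a higher minor share in MM3MG-Her2 than in MM3MG (Mir100, Mir125a, Mir125b and Mir99b) and 1 a lower one (Mir99a), with a median of 1.502, against 18.5% higher and 5.65% lower over all hairpins tested. The minor arm is the 5p arm of Mir99a but the 3p arm of the other 4. In MM3MG-Her2 the 3p arm thus gained share in all 5. In TUBO the same comparison with MM3MG gave 4 higher and 0 lower, with a median of 1.24 (17.1 and 6.84% over all hairpins). In supernatant against TUBO cells, Mir125a rose while Mir100 and Mir99b fell, although Mir99b and Mir125a lie in Spaca6 within the same cluster. The 3 members of the family of miR-148a, miR-148b and miR-152 had 2 higher and 0 lower in MM3MG-Her2 and, in exosomes against TUBO cells, 0 higher and 2 lower (Mir148a and Mir152), with medians of 1.20 and -1.42; over all hairpins 9.02% were higher and 23.0% lower in exosomes. In supernatant against TUBO cells, where 23.8% of all hairpins tested were higher and 26.2% lower, 3 of 5 members of the miR-23/27/24 clusters were lower and 0 higher, with a median of -2.57. Of 4 miR-181 members, 3 were higher there and 0 lower, with a median of 2.38. Of these 3, Mir181d rested on 2 minor reads of 171 in supernatant, all in replicate 3, and 1 of 5102 in TUBO cells, and its call was lost without that library (adjusted p = 0.887). In the X-linked Mir322/Mir503 cluster, 2 of 6 members were lower in MM3MG-Her2 and in TUBO than in MM3MG (Mir450b and Mir503), and 2 of 3 tested were higher in supernatant than in TUBO cells (Mir322 and Mir503). The supernatant call of Mir503 rested on 7 minor reads of 73 and was lost without supernatant replicate 1 (adjusted p = 0.119). The medians over all hairpins tested were 0.30, 0.24, -0.42 and -0.91 for these comparisons.

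Levels were compared next, to see whether a minor arm followed its major arm. Counts per arm were scaled by TMM and tested with edgeR. The filter on low counts passed 60 minor arms in the cell libraries and 47 in the TUBO-derived ones, and the 68 and 81 others were not tested. This filter also kept arms that were high in a single group. The minor arms of Mir135b and Mir141 had no reads in MM3MG or MM3MG-Her2, and that of Mir676 none in TUBO. For such arms the direction was fixed by the filter, and the size of the change depends on the prior count. The counts and Pearson r below include them. In MM3MG-Her2 against MM3MG, 23 minor arms were higher and 4 lower (62.7% of all 279 arms were called, 31.9% higher and 30.8% lower), and with RLE scaling 20 and 7. In TUBO against MM3MG, 30 were higher and 17 lower (82.8% of all arms, 45.2% higher and 37.6% lower), and with RLE scaling 25 and 23. RLE moved the median change of all arms by -0.15 and -0.42 log2 in these comparisons. In exosomes against TUBO cells, 5 minor arms were higher and 19 lower (48.8% of all 242 arms, 19.4% higher and 29.3% lower), and in supernatant 15 and 17 (73.6%, 35.1% higher and 38.4% lower). The exosome count fell to 11 without TUBO replicate 3, to 13 without TUBO replicate 1 or 2, and to 14 without exosome replicate 1 or 2. Across hairpins the log2 changes of both arms had a Pearson r of 0.67 in MM3MG-Her2, 0.95 in TUBO, 0.57 in exosomes and 0.23 in supernatant (60, 60, 47 and 47 hairpins of the same libraries, which are not independent).

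Both arms of a hairpin were called in opposite directions in a few cases. In MM3MG-Her2 these were 4: the minor arm rose while the major arm fell for the Mir181a hairpins (602 to 906 and 39020 to 17390 CPM, hairpin reads scaled to a common total), the Mir125b hairpins, Mir148a and Mir27a. The changes were 0.66 ± 0.14 and -1.08 ± 0.10 log2 for the Mir181a arms, and 0.85 ± 0.13 and -0.67 ± 0.12 for the Mir125b arms. Without MM3MG-Her2 replicate 2 the minor arms of Mir181a, Mir125b and Mir27a were not called (adjusted p = 0.481, 0.113 and 0.0642). In TUBO against MM3MG the 1 case was Mir328 (1.32 ± 0.36 and -0.96 ± 0.18). In exosomes against TUBO cells the 2 cases were Mir30a and Mir30e. miR-30a-3p went from 3639 ± 297 to 8123 ± 81.5 CPM (SD, n = 3; 1.08 ± 0.19, adjusted p = 0.000314), and miR-30a-5p from 145000 ± 4991 to 98700 ± 24090 (-0.64 ± 0.22, adjusted p = 0.0236). For Mir30e the 3p arm rose by 1.17 ± 0.21 and the 5p arm fell by 0.71 ± 0.20 (adjusted p = 0.000346 and 0.00821). Both minor arms kept the call under all 12 alternatives, whereas the falls of both major arms lost the call whichever of the 6 libraries was left out, with adjusted p up to 0.735 for miR-30a-5p and 0.445 for miR-30e-5p.

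Supernatant had 9 such cases. The minor arm fell and the major arm rose for Mir106b, Mir151, Mir27a and the Mir92 hairpins, and the reverse held for the Mir181a hairpins, Mir322, Mir34b, Mir350 and Mir98. The libraries overlapped for the minor arm of Mir98 and the major arm of Mir27a. The latter changed sign with inserts of 20 to 24 bases, and was not called with RLE scaling or when any library other than supernatant replicate 1 was left out. The minor arm of Mir181a lost the call without supernatant replicate 3 (adjusted p = 0.237) and that of Mir98 without supernatant replicate 1 (adjusted p = 0.124). The major arm of Mir34b lost it without TUBO replicate 1 or supernatant replicate 1 or 2, and that of Mir350 without TUBO replicate 1 or 2 or supernatant replicate 1 or 2 (adjusted p up to 0.124 and 0.175). miR-106b-5p went from 732 ± 64.0 CPM in TUBO cells to 70.4 ± 53.4 in supernatant, while miR-106b-3p went from 1078 ± 31.6 to 3192 ± 941 (-3.24 ± 0.36 and 1.87 ± 0.30, adjusted p = 1.23e-06 and 6.46e-05). The 5p arm of Mir151 fell from 1965 ± 167 to 374.5 ± 63.9 CPM as its 3p arm rose from 3169 ± 226 to 16770 ± 8321 (-2.14 ± 0.26 and 2.75 ± 0.39, adjusted p = 3.99e-06 and 3.06e-05). Both arms of Mir423 rose, the 5p arm by 3.98 ± 0.28 and the 3p arm by 1.44 ± 0.19. For miR-125a-3p the rise was 4.35 ± 0.34 and for miR-125a-5p 0.60 ± 0.23, with overlapping libraries for the latter, which was not called with RLE scaling (adjusted p = 0.171) or when any library other than supernatant replicate 2 was left out.

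**Figure D5:**
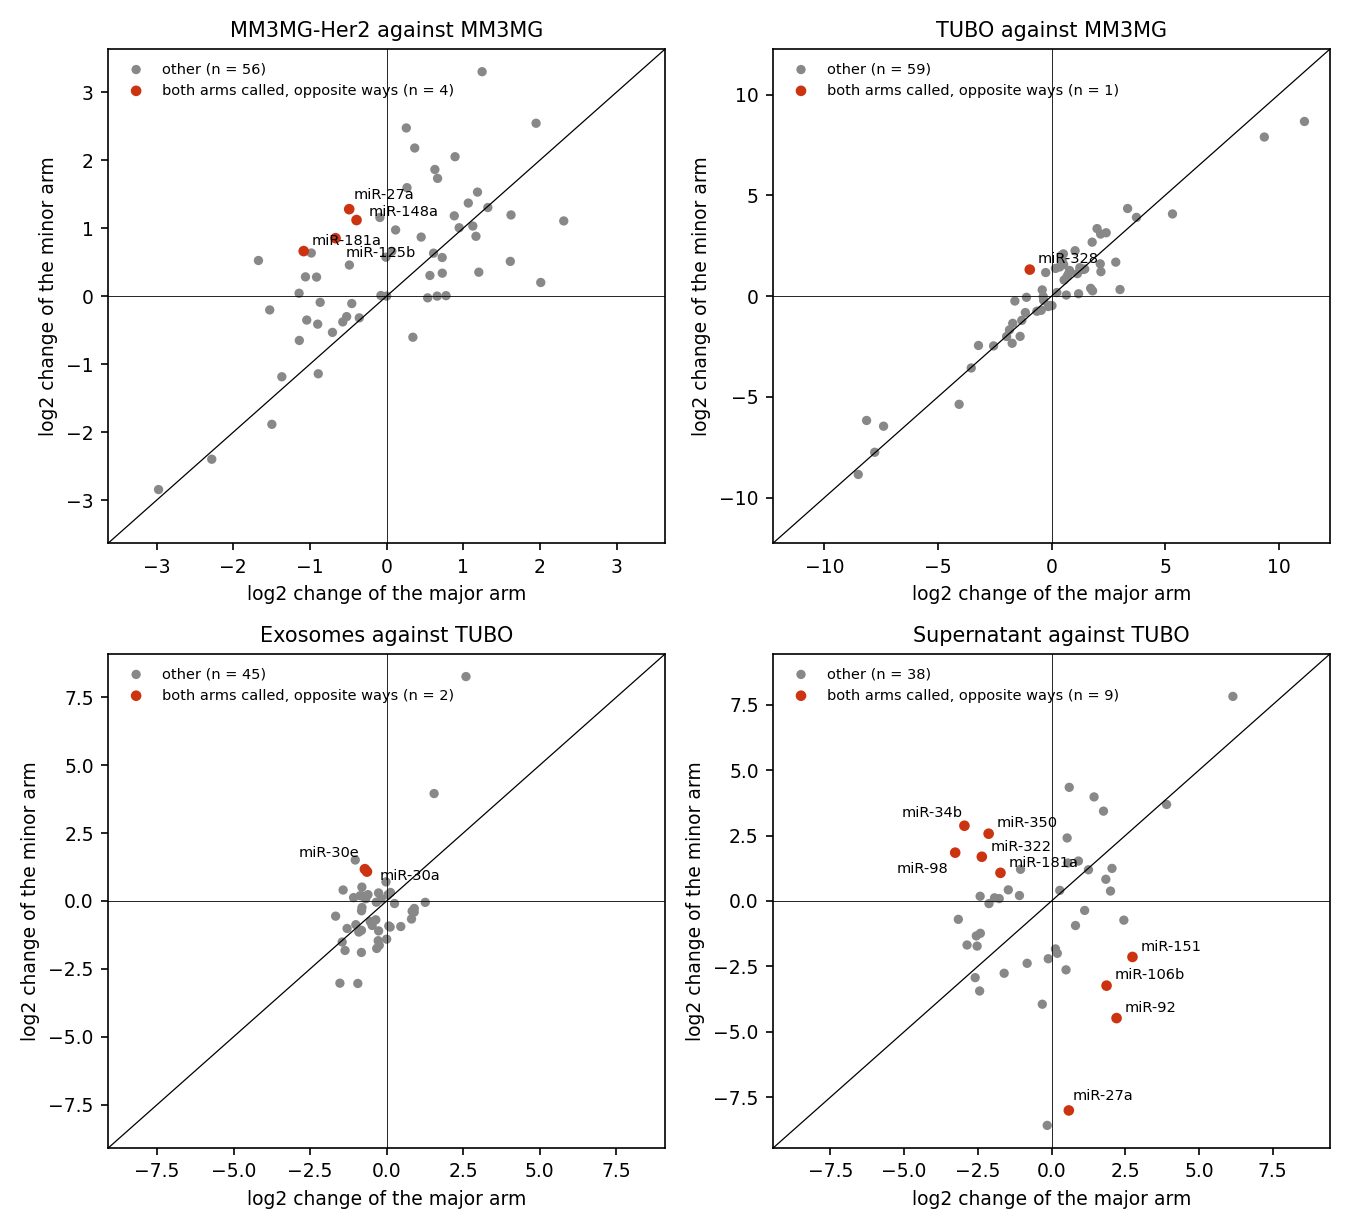
Log2 change of the minor arm (y axis) against that of the major arm (x axis) in 4 comparisons, for the 60 or 47 hairpins whose arms both passed the filter; the diagonal marks equal change and red points are hairpins with both arms called in opposite directions (4, 1, 2 and 9). Fitted changes of arms with 0 reads in a group, such as the 5p arm of Mir27a in supernatant, depend on the prior count.

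Read lengths and ends of minor arms also varied by group. Reads of 20 bases or shorter made up 7.87% ± 0.572 of minor and 4.64% ± 0.111 of major reads in TUBO cells, 9.63% ± 1.33 and 6.15% ± 0.137 in exosomes, and 14.9% ± 1.15 and 13.2% ± 2.35 in supernatant (SD, n = 3). Reads that departed from the hairpin sequence after base 18, which includes added 3′ bases, made up 31.8% ± 1.11 of minor reads in exosomes, 13.4% ± 0.817 in supernatant and 19.2% ± 0.704 in TUBO cells. The corresponding shares of major reads were, in this order, 16.6% ± 0.651, 9.76% ± 0.459 and 15% ± 0.167. Minor reads in exosomes were thus set apart from those in every other group (18.6 to 21.5% in the cell libraries), whereas major reads of exosomes lay under those of MM3MG and MM3MG-Her2 (26.8 to 28.2% and 23.0 to 23.5%). These shares are weighted by reads, and miR-30a-3p gave 44.05% of minor reads in exosomes, 22.4% in TUBO cells and 3.41% in MM3MG. Its part in the difference was not tested. No test was made of these shares.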

How the data were processed

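The authors deposited, per sample, small RNA inserts with their counts. Per the labels, RNA was extracted with TRIzol and adapters were ligated before the miRNA band was cut from a gel; trimmer, aligner and genome build were not given in the sources used here. Inserts of 18 to 26 bases were matched to 1178 named hairpins (GENCODE, GRCm38): the first 18 bases exactly, with up to 2 differences after them. This assigned 4370123 of 6892924 reads. Arms were split at the loop folded with ViennaRNA 2.7.2, and hairpins that shared at least 50% of an arm's reads were counted as 1.

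Arm balance was tested with edgeR 4.0.16 (R 4.3.3; quasi-likelihood, Benjamini-Hochberg over all hairpins tested) as the log2 odds of minor against major arm with a term for each library, so library scaling cancels. There was 1 fit for the 9 cell libraries and 1 for the 9 TUBO-derived libraries. Levels were tested with TMM scaling. Alternatives were DESeq2 1.42.0, inserts of 20 to 24 bases, matching of the whole insert, other read minimums, a replicate block, RLE scaling, no filter, hairpins without shared reads, leaving out each library and, chosen after seeing the data, fitting only the 6 libraries compared. Data were also simulated with both arms drawn independently at a fixed dispersion of 0.05, which was not taken from the spread of these libraries. For MM3MG-Her2 against MM3MG (124 hairpins), 9 of 18 changes of 2 log2 units and 1 of 13 changes of 1 unit were recovered, with 0 false calls. For supernatant against TUBO (84 hairpins), 1 of 7 and 0 of 14 were. The simulated level tests made 2 to 4 false calls per comparison.

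Named per comparison were up to 6 members with the largest called rise and 6 with the largest fall, among those without overlap between libraries and with at least 30 minor reads; also the 12 highest shares, the 12 largest minor read numbers, every member over 50% in a group, those at the 200-read limit, and examples from the family lists. Members and lists were chosen with earlier results of these data known. Reads carry no molecular identifiers, so intervals (95%) and limits cover counting error only. Replicate pairs differed beyond sampling noise (chi-square per degree of freedom 3.91 to 87.3 over 15 pairs).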

Additional observations from a re-analysis of the deposited data

Results flagged for a closer look

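Mir93 was singled out because its minor arm moved in opposite directions in the medium fractions of TUBO cultures. Its 3p arm gave 37 of 9616 reads in TUBO cells, 12 of 13838 in exosomes and 10 of 551 in supernatant. The log2 odds were lower in exosomes than in cells by a fitted -2.13 ± 0.54 and higher in supernatant by 2.24 ± 0.68. The test of the difference itself gave -4.38 ± 0.80 for exosomes against supernatant (edgeR adjusted p = 4.39e-07), and all 3 supernatant libraries lay above all 3 exosome libraries. The supernatant value rested on 10 reads, and its call against TUBO cells was lost without supernatant replicate 2 (edgeR adjusted p = 0.0763). Mir93 was picked by its differences in these same libraries, so the test between the fractions is no independent support.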

How the results depend on the processing

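Of the recomputed values of named hairpins and arms, 1566 stayed on the same side of the threshold, 149 called ones were not called and 6 others became called. In 2 the direction changed: Mir450b between exosomes and TUBO without exosome replicate 3, not called in either case (-0.18 to 0.98 over the libraries left out), and the level of the 3p arm of Mir27a between supernatant and TUBO with inserts of 20 to 24 bases (-0.39). DESeq2 called 16 members between TUBO and MM3MG, 2 between TUBO and MM3MG-Her2, and 5 between exosomes and TUBO. Over hairpins with no shared read, which leaves out Mir30a and all joint hairpins, 14 were called between MM3MG-Her2 and MM3MG, 4 between TUBO and MM3MG-Her2, and 20 between supernatant and TUBO (75, 71 and 46 tested). Leaving out 1 library gave 5 to 8 calls between TUBO and MM3MG-Her2, lowest without MM3MG-Her2 replicate 2, MM3MG-Her2 replicate 3 or TUBO replicate 1, and 11 to 19 minor arms called by level between exosomes and TUBO, lowest without TUBO replicate 3. Matching the whole insert gave 15 of the latter. For counts under these and the other alternatives, no share over all hairpins is given, so none is read as a trait of the members. The summed minor share became 1.84% in MM3MG, 2.589% in MM3MG-Her2, 2.35% in TUBO and 2.405% in exosomes with whole inserts matched, which brought exosomes near TUBO; it was 2.603% in TUBO and 2.992% in exosomes with inserts of 20 to 24 bases, and 2.681% in MM3MG-Her2, 2.278% in TUBO, 1.622% in exosomes and 4.66% in supernatant without shared reads. Beyond these settings' own construction (fewer hairpins or reads), the cause was not tested. With the replicate number as a block, 23, 26, 8, 23, 30 and 23 members were called in the 6 balance comparisons (MM3MG-Her2 and TUBO against MM3MG, TUBO against MM3MG-Her2, exosomes and supernatant against TUBO, exosomes against supernatant), and 30, 46, 21 and 32 minor arms in the 4 level comparisons; Mir361, Mir345, Mir99a, Mir17 and Mir574 were among those not called between exosomes and TUBO. Same-numbered libraries had correlations of -0.189 to 0.331 and every pair passed 0.1 in 0 of 6 comparisons, so the numbers were not taken as pairs. In supernatant, with 58947 to 76914 hairpin reads, low minor shares were not detectable.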
